A study of Mus musculus with 6 samples.

Results

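Mouse pancreas expresses a family of trypsinogen genes and 1 main gene for the inhibitor that guards them, and 10 such genes were followed here between wild-type and OCaR1-/- mice. The members were the rows of the deposited gene table named Prss1, Prss2, Prss3, Try4, Try5, Try10, Gm5771, 1810009J06Rik and 2210010C04Rik (9 trypsinogen genes) and Spink3 (the trypsin inhibitor). All 10 were found among 12016 rows, and all 10 were tested by the authors. RNA came from whole pancreas of untreated male mice aged 3 weeks, 3 wild-type mice (C57Bl6/N) and 3 OCaR1-/- mice, and was sequenced as poly(A)-selected libraries with single reads of 50 bases. The strain is spelled as in the protocol text, and the strain field gives C56Bl6/N for both genotypes. OCaR1 is encoded by Tmem63a, a link that is background knowledge and not in the labels. The labels do not say how the null allele was made, so the deleted part of the gene is unknown, and the organ was taken whole, with every cell type in it.

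The table holds 1 FPKM value per genotype (fragment counts scaled to transcript length and library size, so levels of different genes can be compared per length) for the 3 mice. Values of single mice were not analysed here, the depth is unknown, and no spread between mice can be given. "Called", "rose" and "fell" stand for q under 0.05 in the authors' Cuffdiff test, higher or lower in the knockout. The targeted gene Tmem63a stood at 4.91 FPKM in OCaR1-/- and 18.3 FPKM in wild-type pancreas (authors' deposited table, q = 0.00152). In bulk tissue, fewer cells of a type and less RNA per cell cannot be told apart.

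Trypsinogens are the inactive precursors of trypsin, made by acinar cells and stored in zymogen granules. In the gut, enteropeptidase cuts off a short acidic activation peptide, and the trypsin formed then activates the other pancreatic zymogens. Inside the pancreas, cathepsin B can make the same cut, and Spink3 (the mouse counterpart of human SPINK1, whose newer mouse symbol is Spink1) blocks trypsin that forms too early. In the mouse the trypsinogen genes lie in a cluster of tandem copies within the T cell receptor beta locus.

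The cut site is the part of these genes that defines them as trypsinogens, and it is shown first because it also shows how alike the copies are. Each line gives the coding strand 5′ to 3′, read from GENCODE transcripts of the build the authors used, GRCm38. Capitals mark the run of aspartate codons and the lysine codon after which the activation peptide is removed.
Prss2: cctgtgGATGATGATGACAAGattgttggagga
Try4: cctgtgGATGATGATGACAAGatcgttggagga
Try5: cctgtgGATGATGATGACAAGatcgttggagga
Try10: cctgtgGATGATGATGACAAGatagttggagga
Prss1: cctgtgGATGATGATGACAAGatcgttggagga
Prss3: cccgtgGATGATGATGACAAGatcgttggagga
Gm5771: cctgtgGATGATGATAAGatcgttggagga
2210010C04Rik: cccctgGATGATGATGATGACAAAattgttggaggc
1810009J06Rik: aacagtGATGACAAGattgttggaggc
The stretch of Prss2 lies at chr6:41522825-41522857 on the plus strand and that of 2210010C04Rik at chr6:41034363-41034398 on the minus strand. Prss2, Try4, Try5, Try10, Prss1 and Prss3 have 4 aspartate codons before the lysine. 2210010C04Rik, which encodes the major cationic trypsinogen, has 5, Gm5771 has 3 and 1810009J06Rik has 2. The lines of Try4, Try5 and Prss1 are identical over the whole stretch, although the wild-type levels of Try4 and Prss1 stood at 17050 and 37.5 FPKM.

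Nearly all trypsinogen RNA came from 4 genes, and the trypsinogen sum was nearly equal in both genotypes. Prss2 (ENSMUSG00000057163, chromosome 6, 41521787 to 41525079), which encodes the main anionic trypsinogen, was the most abundant gene of the whole table, at 59529 FPKM in OCaR1-/- and 60473 FPKM in wild type. 2210010C04Rik (ENSMUSG00000029882, chromosome 6, 41030268 to 41035509) had 17124 FPKM in OCaR1-/- and 14098 FPKM in wild type. Try4 (ENSMUSG00000054106, chromosome 6, 41302269 to 41305532) had 12996 FPKM in OCaR1-/- and 17050 FPKM in wild type. These and Try5 (ENSMUSG00000036938, chromosome 6, 41311233 to 41316841), at 11495 and 9802 FPKM, made up 98.8% of the summed trypsinogen FPKM in OCaR1-/- and 99.1% in wild type. The sum over the 9 genes was 102403 FPKM in OCaR1-/- and 102303 FPKM in wild type, a log2 ratio of 0.0014. The standard error of this log2 ratio was 0.14. It was built from the errors that would give each gene's deposited p, with genes treated as independent. The values therefore do not establish that the sums are equal. The sum amounted to 15.1% of all FPKM of the table in the knockout and 15.6% in wild type. A further scaling set equal the summed FPKM of genes outside the members, the zymogen list and the acinar marker list used below. With it the log2 ratio of the trypsinogen sums was -0.18. The genes scaled to still include secreted-protein genes, such as Reg1 (36606 FPKM in OCaR1-/- and 28917 FPKM in wild type) and Pnliprp1 (18598.5 and 20548 FPKM). They also include the immunoglobulin segment Igkj4 (8147 and 735 FPKM).

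**Figure D1:**
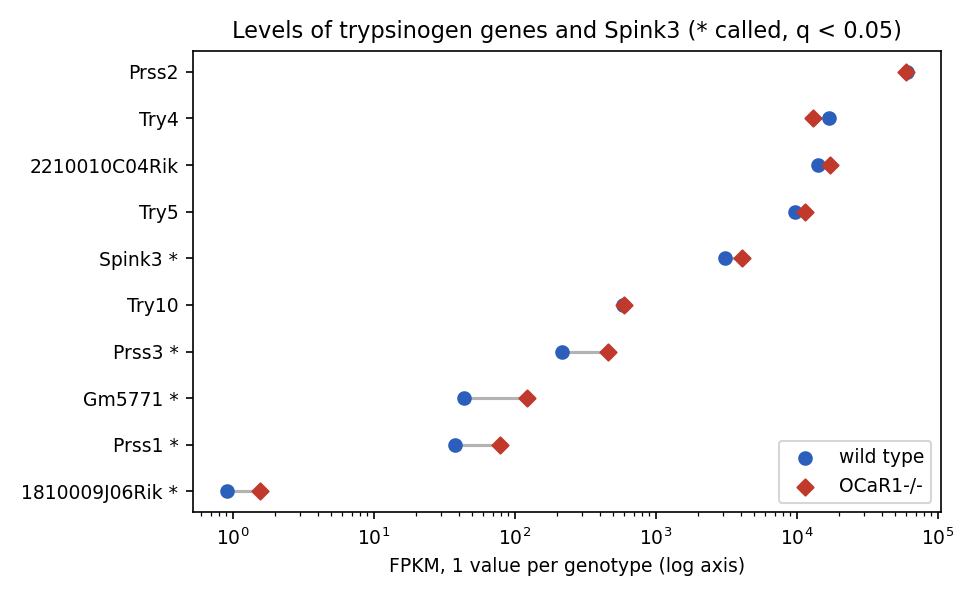
FPKM of each member on a log axis, 1 value per genotype (circles wild type, diamonds OCaR1-/-), with an asterisk at members called at q under 0.05. The 4 abundant trypsinogens lie between 9802 and 60473 FPKM with no call, and the called trypsinogens reach at most 458 FPKM.

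Within that sum the order of the abundant genes differed between the genotypes. In wild type Try4 lay above 2210010C04Rik, and in the knockout the order of these 2 genes was turned. The ratio of Try4 to 2210010C04Rik was 1.21 in wild type and 0.759 in the knockout, and that of Try4 to Try5 was 1.74 and 1.13. Try4 was lower by 4054 FPKM in the knockout, while 2210010C04Rik was higher by 3026 FPKM and Try5 by 1693 FPKM. The share of Try4 in the summed trypsinogen FPKM was 16.7% in wild type and 12.7% in the knockout. The share of 2210010C04Rik was 13.8% in wild type and 16.7% in the knockout, and that of Try5 was 9.58% and 11.2%. Prss2 held 59.1% and 58.1%.

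**Figure D2:**
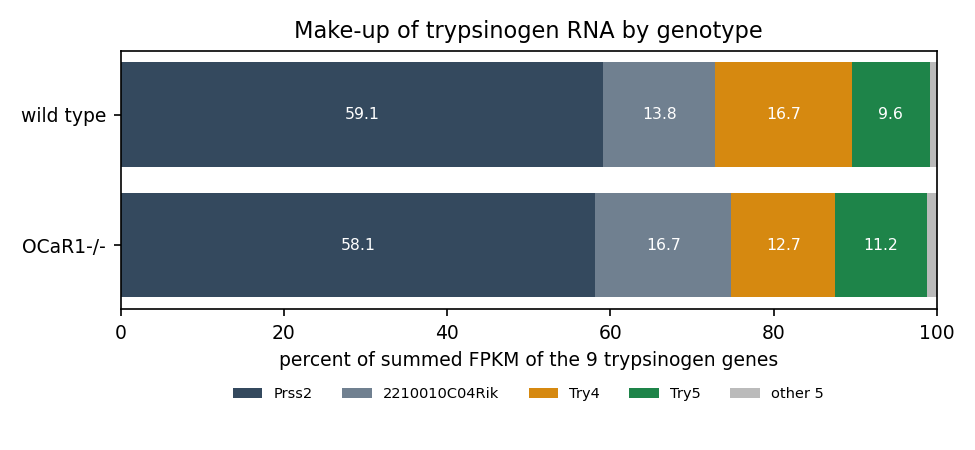
Percent of the summed FPKM of the 9 trypsinogen genes held by each abundant gene, 1 bar per genotype, with the other 5 genes in light grey at the right end. Try4 takes 16.7% in wild type and 12.7% in the knockout, and Prss2 takes more than any other gene in both bars.

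None of these 4 differences was called. In the authors' deposited table q was 0.984 for Prss2, 0.596 for 2210010C04Rik, 0.278 for Try4 and 0.470 for Try5. Try4 alone of the 4 had an unadjusted p below the threshold (p = 0.0478 in the authors' deposited table). Taking the standard error that would give each deposited p under a normal approximation, 95% intervals of the knockout over wild-type ratio were obtained. They ran from 0.721 to 1.34 for Prss2, from 0.901 to 1.64 for 2210010C04Rik, from 0.583 to 0.997 for Try4 and from 0.958 to 1.44 for Try5. For these 4 genes the deposited test statistic gives wider intervals than the deposited p. Over 10813 tested genes the normal deviate that matches p was a median of 2.48 times the statistic, and how one was derived from the other is not stated in the labels or the file. Read as a normal deviate, the statistic gives 0.445 to 2.18 for Prss2, 0.566 to 2.61 for 2210010C04Rik, 0.304 to 1.91 for Try4 and 0.707 to 1.94 for Try5. The p-based intervals are thus the narrower of 2 readings of the same table. On that p-based scale the implied standard error of the log2 ratio was 0.23 for Prss2 and 0.11 for Spink3. The log2 ratio of 0.39 measured for Spink3 lies under the 0.45 that Prss2 needed for an unadjusted p of 0.05. Whether the shift between Try4 and the other genes exceeds the spread between mice could not be tested, since there is 1 value per genotype.

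Among the low-level trypsinogens, 3 rose about 2-fold or more. Prss3 (ENSMUSG00000071519, chromosome 6, 41373814 to 41377678) rose from 216.6 FPKM in wild type to 457.7 FPKM in the knockout, a log2 ratio of 1.08. Gm5771 (ENSMUSG00000058119, chromosome 6, 41392356 to 41397230), the copy with the shortened run of aspartate codons among the closely related genes, rose from 43.5 to 121.8 FPKM, a log2 ratio of 1.49. Prss1 (ENSMUSG00000062751, chromosome 6, 41458932 to 41463786) rose from 37.5 to 78.8 FPKM, a log2 ratio of 1.07. Each had p = 5e-05, the smallest of the table, and q = 0.00152 in the authors' deposited table. With p taken from the deposited statistic and adjusted over all tested genes, these 3 remained called, and the 95% intervals of their ratios began at 1.49 for Prss3, 1.96 for Gm5771 and 1.43 for Prss1. Despite its name, Prss1 was a minor gene here and held 0.0366% of trypsinogen FPKM in wild type. Try10 (ENSMUSG00000071521, chromosome 6, 41354105 to 41357914), at a level similar to that of Prss3, had 599.3 FPKM in OCaR1-/- and 582.0 FPKM in wild type, without being called (authors' deposited table, q = 0.927). The 95% interval of its ratio was 0.893 to 1.19 from p and 0.729 to 1.45 from the statistic. The ratio of Prss3 to Try10 was 0.764 in the knockout and 0.372 in wild type.

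Together Prss1, Prss3 and Gm5771 had 658.3 FPKM in OCaR1-/- and 297.6 FPKM in wild type, a 2.21-fold rise in the sum. These sums equal 1.11% and 0.492% of the level of Prss2. Their gain of 360.7 FPKM was smaller than the uncalled difference of -944.1 FPKM in Prss2.

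The remaining trypsinogen, 1810009J06Rik (ENSMUSG00000094808, chromosome 6, 40964754 to 40968435), was close to the lower limit of the table, at 1.58 FPKM in OCaR1-/- and 0.910 FPKM in wild type. It was called higher just inside the threshold (authors' deposited table, q = 0.0487), with a 95% interval of the ratio of 1.20 to 2.50 from p. The interval from the deposited statistic was 0.713 to 4.20, and the call was lost. No row of the table has both values below 1 FPKM. This gene is thus listed only through its knockout value, and its call is not independent of that limit. Without it, the calls among the 9 trypsinogens are the 3 above.

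In all, 5 of 10 members were called higher (Prss1, Prss3, Gm5771, 1810009J06Rik and Spink3) and 0 lower. By comparison, 7.54% of the 11478 tested genes were called, 4.20% higher and 3.35% lower. At an unadjusted p under 0.05, 1 member, Try4, was lower. By the deposited statistic 3 members (Prss3, Gm5771 and Prss1) were called higher and 0 lower, with 0.358% of the 11458 tested genes that have a statistic called higher. Among the 1701 tested genes with 20 to 700 FPKM in the higher genotype, the range of Prss1, Gm5771, Prss3 and Try10, 3.94% were called higher and 5.41% lower. Of the 25 tested genes that reached 5000 FPKM in either genotype, 8.00% were called higher and 12.0% lower. The median log2 ratio was 0.28 over the 9 trypsinogens and -0.03 over all tested genes. The trypsinogens are copies of one another, so their calls are not separate observations.

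**Figure D3:**
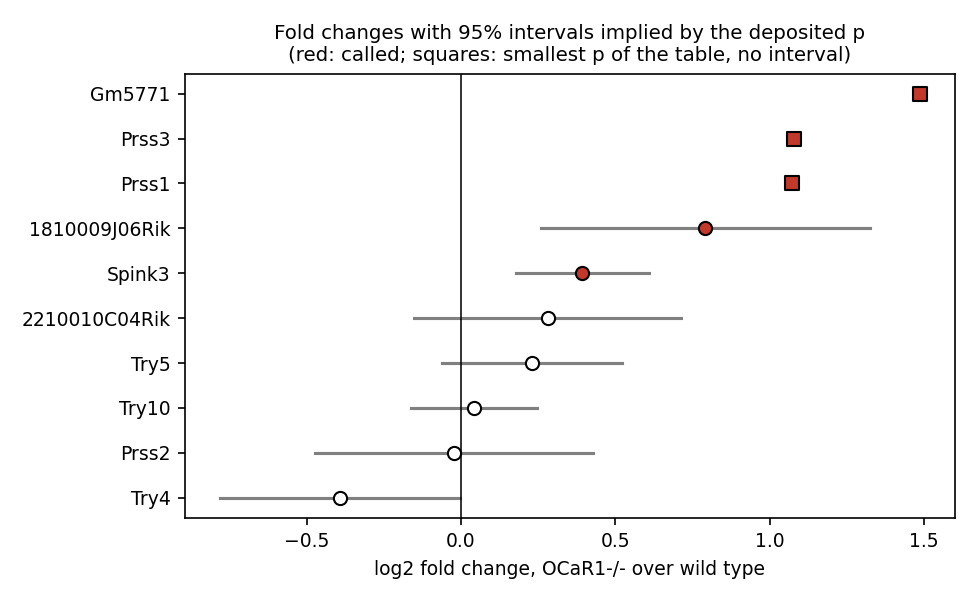
Log2 ratio of knockout over wild type for each member, with the 95% interval implied by the deposited p-value where it lay above the smallest p of the table (circles) and without interval at that smallest p (squares); red marks called members, and the wider intervals from the deposited statistic are not drawn. Prss1, Prss3 and Gm5771 lie above 1, Spink3 at 0.39, and the intervals of Prss2, Try10, Try5 and 2210010C04Rik cross 0.

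The trypsinogen members span 560.3 kb of chromosome 6, and the table holds 5 further rows of the cluster within or just beside that span, examined after the values of the members had been seen. One of these, the protein-coding gene Gm10334 (ENSMUSG00000071517, chromosome 6, 41442216 to 41446145), also rose, from 8.95 to 21.9 FPKM (log2 ratio 1.29, q = 0.00152 in the authors' deposited table). It lies between Gm5771 and Prss1. Along the chromosome the order of the listed rows is Prss3, Gm5771, the pseudogene Gm5409, Gm10334 and Prss1. Among listed rows the 4 genes with the largest rises are thus neighbours but for 1 pseudogene. Copies without a listed row would not be seen here. Gm5409 had 15.1 FPKM in OCaR1-/- and 14.4 FPKM in wild type, uncalled (authors' deposited table, q = 0.910). Try10 lies on one side of this block, and the pseudogene RP23-203H5.3 (9.33 and 7.56 FPKM, q = 0.349 in the authors' deposited table) and Prss2 lie on the other. Gm4744 (2.46 and 2.45 FPKM) and Gm2663 (1.52 and 1.02 FPKM), at the end of the cluster far from Prss2, were not called.

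**Figure D4:**
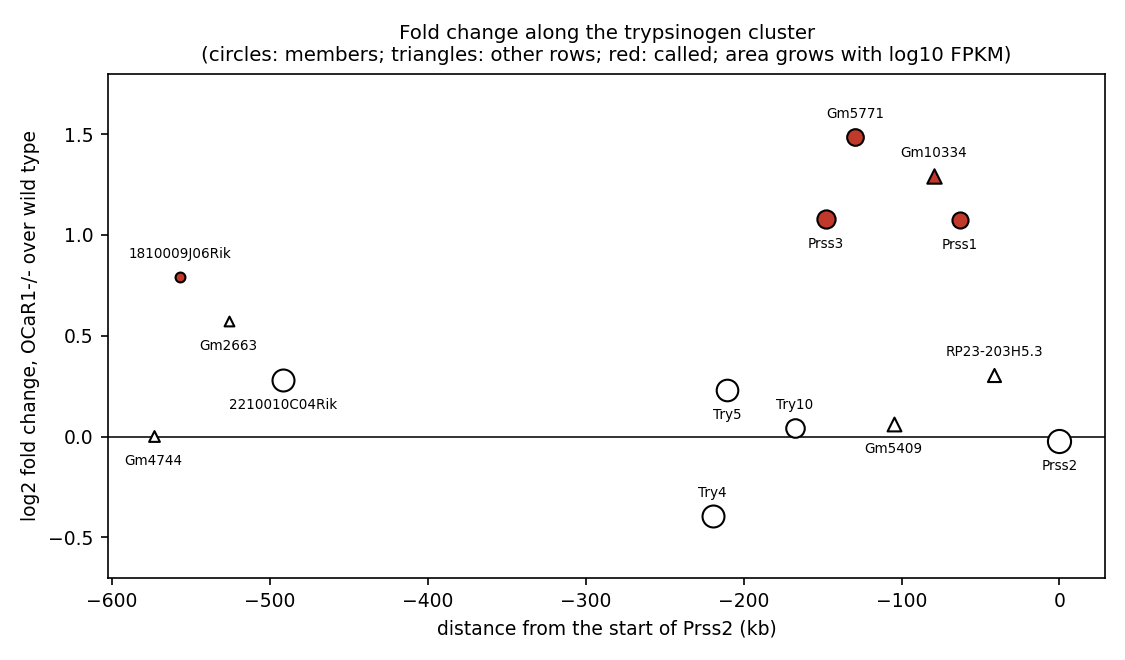
Log2 ratio of knockout over wild type of the 14 rows of the cluster against distance from the start of Prss2 in kb; circles are members, triangles other rows, red marks called genes, and symbol area grows with log10 FPKM. Prss3, Gm5771, Gm10334 and Prss1 stand above 1 side by side, with Gm5409 between them near 0 and Try10 and Prss2 on the flanks near 0.

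Prss3, Gm10334, Gm5771 and Prss1 are close copies of one another. Over the coding sequence, Prss3 and Gm10334 were 99.1% identical (7 differing positions in the alignment) and Gm5771 and Prss1 were 97.6% identical (18 differing positions). All 6 pairs among these 4 genes shared at least 96.2%. The 24 pairs between them and the other 6 trypsinogens shared at most 93.5%. Try4 and Try5 formed another close pair, at 97.4%, and neither was called. The least similar genes were 1810009J06Rik and 2210010C04Rik, which shared 77.5% with each other. With the rest, 2210010C04Rik shared at most 76.7% and 1810009J06Rik at most 72.6% of aligned positions. The grouping of the 4 genes was made after their values were seen, so it describes them and carries no test.

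Such likeness bears on what a read of 50 bases can tell. For each gene the share of 50-base windows of its longest GENCODE transcript that occur identically in the transcript of another gene was counted, on both strands. It was 0% for 2210010C04Rik and Spink3 and 7.83% for Prss2. It was 65.6% for Try4, 53.9% for Try5, 40.8% for Try10, 66.1% for Prss3, 55.4% for Gm5771 and 54.9% for Prss1. Windows of Prss3 were shared mostly with Gm10334 (65.1%), those of Gm5771 with Prss1 (39.3%), and those of Try4 with Try5 (45.9%). For 1810009J06Rik 81.5% of windows were shared, all with Gm2663. Within 1 mismatch of another cluster transcript lay 0% of the windows of 2210010C04Rik and Spink3, 20.8% for Prss2 and 86.8% for Try4. This share was 66.6% for Try5, 73.1% for Try10, 77.4% for Prss3, 77.8% for Gm5771, 73.5% for Prss1 and 93.6% for 1810009J06Rik. How the authors treated reads that map to several genes was not given in the sources used here, so each value of these genes is uncertain to the extent that shared reads were divided between copies.

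**Figure D5:**
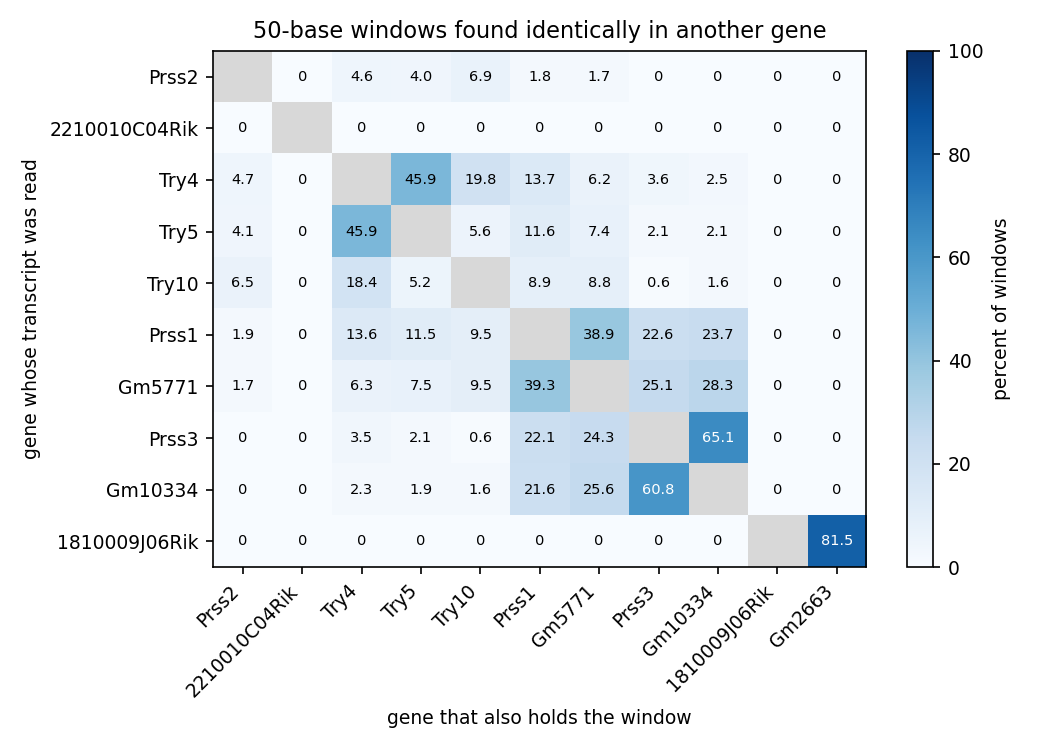
Percent of the 50-base windows of each row gene's transcript that also occur in the column gene's transcript. The dark pairs are Prss3 with Gm10334, 1810009J06Rik with Gm2663, Try4 with Try5 and Gm5771 with Prss1, and 2210010C04Rik shares no window with any gene.

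Some links reach across the groups. Prss1 shared 13.6% of its windows with Try4, 11.5% with Try5 and 1.85% with Prss2, genes whose levels were far higher. Prss3 shared 3.49% with Try4, 2.07% with Try5 and none with Prss2. Gm5771 shared 9.48% with Try10, 7.48% with Try5 and 6.28% with Try4. Sums over close pairs depend little on how reads were divided within the pair, but the pairs are not closed groups. Gm5771 shared 28.3% of its windows with Gm10334 and 25.1% with Prss3, and Prss1 shared 23.7% and 22.6% with these genes. Prss3 and Gm10334 together stood at 479.6 FPKM in OCaR1-/- and 225.5 FPKM in wild type (2.13-fold), and Gm5771 and Prss1 together at 200.6 and 81.0 FPKM (2.48-fold). All 4 of these genes together had 680.2 and 306.5 FPKM (2.22-fold). Try4 and Try5 together had 24491 and 26852 FPKM, a log2 ratio of -0.13 and a difference of -2360 FPKM, where Try4 alone differed by -4054 FPKM. 1810009J06Rik and Gm2663 together had 3.10 and 1.93 FPKM. The part of shared reads in the rise of the low-level genes was not tested.

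The stretches before the gene starts are shown because Prss1, Gm5771, Prss3 and Gm10334 fall into 2 pairs of near copies there as well. RefSeq promoter windows (GRCm38.p6) were found for 6 of the trypsinogen members and for Gm10334, and that of 2210010C04Rik is not printed. The last 150 bases before the RefSeq start are printed 5′ to 3′ on the gene's strand. Capitals mark the motifs CACCTG (an E box), TTTCCC (the core of the site for Rbpjl) and TATAAA (the core promoter box) on either strand, and no 2 of these matches overlap.
Prss1: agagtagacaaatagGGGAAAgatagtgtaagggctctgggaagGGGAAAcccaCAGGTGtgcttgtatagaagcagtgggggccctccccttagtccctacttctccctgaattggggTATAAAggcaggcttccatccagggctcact
Gm5771: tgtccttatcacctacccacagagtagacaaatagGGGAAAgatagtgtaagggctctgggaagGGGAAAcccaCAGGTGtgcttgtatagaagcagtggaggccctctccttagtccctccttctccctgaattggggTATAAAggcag
Try4: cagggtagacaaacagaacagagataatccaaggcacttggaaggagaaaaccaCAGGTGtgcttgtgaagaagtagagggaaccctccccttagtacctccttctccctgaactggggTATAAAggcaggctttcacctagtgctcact
Prss3: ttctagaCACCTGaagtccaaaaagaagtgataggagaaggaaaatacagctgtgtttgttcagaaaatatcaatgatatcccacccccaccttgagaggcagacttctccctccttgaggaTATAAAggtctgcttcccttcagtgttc
Gm10334: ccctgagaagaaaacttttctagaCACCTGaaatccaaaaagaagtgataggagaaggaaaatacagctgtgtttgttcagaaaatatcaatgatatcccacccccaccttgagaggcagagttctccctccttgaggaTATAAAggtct
Prss2: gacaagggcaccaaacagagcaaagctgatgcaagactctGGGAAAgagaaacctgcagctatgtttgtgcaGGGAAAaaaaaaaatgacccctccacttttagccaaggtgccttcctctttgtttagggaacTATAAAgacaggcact
These stretches lie at chr6:41458780-41458929 for Prss1, chr6:41392206-41392355 for Gm5771, chr6:41302122-41302271 for Try4 and chr6:41521626-41521775 for Prss2 on the plus strand. Those of Prss3 (chr6:41377614-41377763) and Gm10334 (chr6:41446098-41446247) lie on the minus strand. The gene intervals given above do not always begin at the RefSeq start. Those of Prss3 and Gm10334 reach to 41377678 and 41446145, and that of Try4 begins at 41302269, so each overlaps part of its printed stretch.

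Over the 250 bases before the start, Prss1 and Gm5771 were identical at 226 of 230 overlapping positions (98.3%), with annotated starts that differ in place. Prss3 and Gm10334 were identical at 226 of 233 (97.0%). Prss1 and Try4, the next most similar pair, shared 173 of 254 (68.1%). The 2 pairs that rose thus have different upstream sequences, at 54.3% identity between Prss1 and Prss3 over their full windows, where the median over all 21 pairs was 52.2%. All 7 windows held TATAAA, which occurs in 12.4% of the 32851 RefSeq promoter windows, and CACCTG, which occurs in 17.2%. TTTCCC, held by 21.9% of all windows, was in those of Prss1, Gm5771 and Prss2. CACCTG followed on the same strand within 20 bases by TTTCCC, the 2 parts of the element bound by the acinar factor complex that contains Ptf1a, was in those of Prss1 and Gm5771 and in 0.213% of all windows. The windows of Prss1 and Gm5771 are near copies, so their matches are not separate observations. All of these motif hits are matches of letters, and the absence of a match says only that these letters are not in the window.

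The inhibitor gene was called higher by the authors' q, a call that their test statistic does not give. Spink3 (ENSMUSG00000024503, chromosome 18, 43728069 to 43737237) stood at 4105 FPKM in OCaR1-/- and 3127 FPKM in wild type and ranked 27 among all rows in both genotypes. Its log2 ratio was 0.39 (1.31-fold), with q = 0.00816 in the authors' deposited table. The 95% interval of its ratio was 1.13 to 1.52 from the deposited p but 0.915 to 1.88 from the deposited statistic, which crosses 1. With p taken from the statistic, Spink3 was no longer called. Spink3 amounted to 4.01% of the summed trypsinogen FPKM in OCaR1-/- and 3.06% in wild type. Put the other way, there were 24.9 FPKM of trypsinogen for each FPKM of Spink3 in the knockout and 32.7 in wild type. The log2 ratio of Spink3 to the trypsinogen sum was 0.39, and lay between 0.32 without Try4 and 0.44 without 2210010C04Rik in the sum. That range comes from leaving out single genes and is not an interval. The standard error implied by the deposited p, with members treated as independent, was 0.18. For Spink3 and for each abundant trypsinogen the deposited statistic gives a larger standard error than p. Scaled to the genes outside the members, the zymogen list and the acinar marker list, the log2 ratio of Spink3 itself was 0.21. The ratio to trypsinogen does not depend on scaling.

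Other genes that act on trypsinogen or trypsin were taken from fixed lists, of which only genes present in the table could be followed. The calls below are by the authors' q, by which 4.20% of all tested genes were called higher and 3.35% lower. With p taken from the deposited statistic, 0 genes of these lists, acinar transcription factors included, were called. Of 3 tested genes of activation and breakdown, 0 were called by Cuffdiff, and 1, Ctsl, had an unadjusted p under 0.05 (p = 0.0096 and q = 0.0994 in the authors' deposited table). Ctsl, the gene of cathepsin L, which degrades trypsinogen, had 182.7 FPKM in OCaR1-/- and 152.1 FPKM in wild type. Ctsb, the gene of the activating cathepsin B, had 30.8 and 27.0 FPKM in an interval it shares with another row, and Ctsd, the gene of cathepsin D, had 109.1 and 124.1 FPKM. Tmprss15 (enteropeptidase) and Ctrc were not analysed here.

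Among 17 tested genes of trypsin and serine protease inhibitors, 4 were called higher and 1 lower, with a median log2 ratio of 0.23. Beside Spink3 these were Serping1, the complement inhibitor gene (17.3 and 11.6 FPKM), and genes of the inter-alpha-trypsin inhibitor heavy chain family, which bind hyaluronan. Itih4 rose from 24.1 to 40.3 FPKM and Itih5 from 2.57 to 3.72 FPKM, and Itih2 fell from 8.27 to 5.76 FPKM. The heavy chains carry the name of the inhibitor but not its inhibitory part. Serpini2, the pancreatic serpin gene, had 785.7 FPKM in OCaR1-/- and 857.5 FPKM in wild type, uncalled (authors' deposited table, q = 0.649). Spint2 (119.7 and 124.1 FPKM), Serpinb1a (59.0 and 60.6 FPKM) and Serpinh1 (32.2 and 27.3 FPKM), a collagen chaperone gene of the serpin family, were not called either. Of the 3 inhibitor genes with the highest levels, Spink3, Serpini2 and Spint2, Spink3 alone was called.

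Of 9 tested zymogen and cofactor genes that trypsin activates, 1 was called, Cela1, an elastase gene that fell from 37728 to 16591 FPKM. The next by level had Clps, the colipase gene, at 36063 and 36474 FPKM, Cela3b, an elastase gene, at 26944 and 25317 FPKM, Ctrl, a chymotrypsin-like protease gene, at 25941 and 23440 FPKM, and Cpb1, a carboxypeptidase gene, at 24584 and 23015 FPKM. The median log2 ratio of this list was 0.09. Clps shares its interval with another row. Of the protease-activated receptors, F2r, the thrombin receptor gene, was the 1 tested gene and was called higher, at 1.22 and 0.761 FPKM, so that it too is listed only through its knockout value. The trypsin receptor gene F2rl1 was not analysed here.

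Among 22 other genes of trypsin-fold serine proteases, 4 were called higher and 0 lower, with a median log2 ratio of 0.16. They were the kallikrein gene Klk1b11 (22.2 and 14.6 FPKM), the plasminogen activator genes Plau (3.16 and 1.90 FPKM) and Plat (2.37 and 1.69 FPKM), and Prss23 (5.12 and 3.96 FPKM), which shares its interval with another row. The abundant Klk1, the tissue kallikrein gene, had 5257 FPKM in OCaR1-/- and 5944 FPKM in wild type, uncalled (authors' deposited table, q = 0.587). Klk1b5 (113.1 and 122.3 FPKM), Hpn (52.8 and 55.2 FPKM) and Htra2 (42.1 and 40.1 FPKM) were not called. Klk1 and Htra2 share their intervals with other rows.

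Of 11 tested acinar transcription factor genes, 3 fell and 0 were called higher, with a median log2 ratio of -0.20. Ptf1a fell from 40.9 to 27.2 FPKM, with Gata4 at 13.0 against 18.9 FPKM and Nr5a2 at 10.6 against 13.6 FPKM in wild type. Rbpjl, the partner of Ptf1a in the acinar complex, had 159.0 and 153.4 FPKM, Bhlha15 64.3 and 68.6 FPKM, Hnf4a 11.3 and 14.6 FPKM and Foxa2 8.67 and 8.36 FPKM, none of them called. Rbpjl and Hnf4a share their intervals with other rows.

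Acinar identity of the tissue was plain from its markers. All 8 acinar markers in the table lay at or above 2803 FPKM in both genotypes, and 3 of them (Cela1, Pnlip and Sycn) were called lower. Their summed level was 129153 FPKM in OCaR1-/- and 151912 FPKM in wild type. Cela1, also on the zymogen list, stood at 16591 and 37728 FPKM, Pnlip at 7662 and 15748 FPKM and Sycn at 9338 and 12703 FPKM. Of the 5 uncalled markers, Cel (30443.5 and 22960 FPKM), Rnase1 (21825 and 19330 FPKM) and Zg16 (18519 and 16765 FPKM) were higher in value. Cpa1 and Gp2 were lower in value. Cel and Sycn share their intervals with other rows. Markers of other cells moved with the genotype, where 4.20% of all tested genes were called higher and 3.35% lower. Called higher were 9 of 11 islet genes, 9 of 10 macrophage genes, 6 of 7 fat cell genes and 5 of 9 stromal genes. So were 4 of 7 endothelial genes and 1 of 6 duct genes, while 5 of 6 smooth muscle genes were called lower. Summed marker levels in the knockout and wild type were 4118 and 2567 FPKM for islet, 117.2 and 66.8 FPKM for macrophage, 193.9 and 87.2 FPKM for fat cell, 462.7 and 351.7 FPKM for stromal, 45.6 and 33.9 FPKM for endothelial, 237.3 and 218.5 FPKM for duct and 27.6 and 64.1 FPKM for smooth muscle. Of these called genes, 3 macrophage genes and 1 fat cell gene are below 1 FPKM in wild type and so are listed only through their knockout value, and 2 smooth muscle genes only through their wild-type value. With p taken from the deposited statistic, 1 macrophage gene and 3 fat cell genes were called higher, 3 smooth muscle genes lower, and 0 of the other marker lists. No marker in the table was listed at 0. The T cell list, of interest since the trypsinogens lie within a T cell receptor locus, had 1 gene in the table, Tcf7, at 0.821 and 1.61 FPKM without a call. Tcf7 shares its interval with another row. The part of these cells in the results on trypsinogens and Spink3 was not tested.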

How the data were processed

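RNA from 6 pancreas samples was sequenced. The tools named in the submitters' processing notes are Cuffdiff, Cufflinks 2.2.1 and STAR 2.5.1b, with GRCm38 as the build. For the annotation release, strand and multiply mapped reads the answer was not given in the sources used here. Per the labels' protocols RNA integrity numbers were 8.20 to 9.10. The deposited table gives 1 FPKM value per genotype, a log2 fold change and a test statistic (scores of Cuffdiff), with a p-value and a q-value from the authors. There were 0 columns of single samples, so no own test of expression was made.

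Ratios were computed as knockout over wild type without pseudocount. Standard errors were derived from the deposited p-value as the absolute log2 ratio divided by the matching normal quantile. The simulated data used to check this step were drawn from that same normal model, so the check covers the arithmetic only. As an alternative chosen after seeing the data, the deposited test statistic was read as a normal deviate. Of the rows, 538 were not tested by the authors and were left out of counts. Locus starts count from 0 and were shifted by 1. Transcripts were those of GENCODE M21 (GRCm38), aligned with Biopython 1.88. All 10 members were named; of each list around trypsin every called gene and up to 4 others with the highest mean FPKM were named, and marker lists were given mainly as counts and sums. Members and lists were chosen with earlier results of these data known. Alternatives were other thresholds, pseudocounts, scalings and sums.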

Additional observations from a re-analysis of the deposited data

How the results depend on the processing

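Of 114 recomputed values, 108 moved by less than the implied standard error or within 1.5 times the count, and 0 called values changed sign. Many of these could hardly move: the deposited fold change column holds the same ratio, and 0 members share an interval. The largest scaling shift, 0.18, is below the smallest log2 ratio of a called member, 0.39, so no scaling could turn a called sign. For Prss3, Gm5771 and Prss1 the standard error was an upper bound from the smallest p, and for sums members were treated as independent. Scaling to the summed FPKM of genes outside the members, the zymogen list and the acinar marker list shifts all log2 ratios by 0.18. It gave 0.052 for Try5, -0.14 for Try10, 0.21 for Spink3 and -0.18 for the summed trypsinogens. A pseudocount of 1 FPKM gave 0.43 for 1810009J06Rik. Called members numbered 4 at a q threshold of 0.01 and 4 with q recomputed over genes of at least 5 FPKM, in both cases without 1810009J06Rik. With p taken from the deposited test statistic, an alternative chosen after seeing the data, 3 were called higher, without Spink3 and 1810009J06Rik. Over the whole table the statistic called 65 genes and the authors' q 866, and 31 genes were called by both. The 2 readings thus differ in both directions, and the cause was not tested. Adding the other 5 rows of the cluster to the sum, chosen after seeing the data, gave a log2 ratio of 0.0016. Leaving out single mice was not run, since the table holds 1 value per genotype. No paired analysis was possible because the columns carry no replicate number. Depth is unknown and sets no stated limit.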
